A study of Mus musculus with 30 samples.

Results

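The response of bone marrow multipotent progenitors (MPPs) of mice to MTP10-HDL was measured by RNA sequencing in 3 treated libraries, numbered 1, 2 and 3, against 2 libraries from mice given phosphate-buffered saline (PBS), numbered 2 and 3. These 5 libraries were taken by their labels from the 30 samples of the series, and all of them come from the count table of MPPs. The animals were C57BL/6 mice of no stated age, and no allele or transgene is named for either group. Treated mice carry the agent label MTP10-HDL and controls the agent label PBS. Per the labels, 3 injections were given within 5 days, the mice were killed 1 day after the last one, and each RNA sample pooled the cells of 4 mice. The labels repeat that schedule, with the nanoparticle's name, under the PBS samples, so the groups rest on the agent label. Marrow of femurs and tibias was depleted of lineage-positive cells with magnetic beads and MPPs were sorted by flow cytometry, with sort markers not given in the sources used here. The spread measured below is therefore between pools of mice, with 1 degree of freedom in the PBS group. Of 55471 genes in the table, 15449 passed the filter on low counts and were tested.

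Multipotent progenitors lie just downstream of hematopoietic stem cells (HSCs). They have lost most of the capacity for long-term self-renewal, divide more often than stem cells and supply the lymphoid, granulocyte-monocyte and megakaryocyte-erythroid branches. High-density lipoprotein (HDL) particles carry lipids and exchange cholesterol with cells through receptors and transporters such as Scarb1 and Abca1. Muramyl tripeptide, for which MTP stands, is a derivative of bacterial cell wall muropeptides, which are sensed inside cells by Nod2 through the kinase Ripk2 towards NF-kB. Exposure of marrow progenitors to such microbial ligands is studied as trained immunity, in which their later myeloid output is altered.

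The 5 libraries held 11252479 to 32769369 counts, and the treated libraries (17555267 to 32769369) were all deeper than the PBS libraries (11252479 and 14691375; exact permutation test over libraries, 2-sided p = 0.2, where 0.1 is the smallest p that 3 against 2 allows). The share of counts on immunoglobulin genes was 4.26%, 4.24% and 2.76% with MTP10-HDL and 12.5% and 6.20% with PBS (exact permutation p = 0.1). The share on ribosomal RNA was 0.508% to 0.915% with MTP10-HDL and 1.26% to 1.47% with PBS. These shares separated the groups completely, and their part in the differences below was not tested. In a principal component analysis the first component (34.3% of the variance) set MTP10-HDL library 2 apart and did not separate the treatments. On the second component (29.7%) all 3 treated libraries (scores of -76.8 to 13.9) lay below both PBS libraries (21.7 and 54.1). The labelled cell type was checked against its markers. The progenitor receptors Kit (308 to 519 CPM, counts scaled to a common library size), Flt3 (665 to 899.5 CPM) and Cd34 (749.8 to 1220.2 CPM), and the stem and progenitor antigen Ly6a (150.2 to 198.8 CPM, the gene of Sca-1), were present in all 5 libraries. Slamf1, the stem cell marker CD150, lay between 0.649 and 2.04 CPM. Other stem cell markers were present, with Procr at 27.3 to 61.1 CPM and Hlf at a mean of 386 CPM. The low Slamf1 level alone therefore does not show that stem cell transcripts were absent.

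No gene passed the test between treated and control MPPs after adjustment over all 15449 genes (0 called, 0.0%; edgeR quasi-likelihood test, Benjamini-Hochberg, false discovery rate 0.05). The smallest adjusted p was 0.0928, reached among others by Slc4a1, the erythrocyte anion exchanger, and Siglech, a lectin of plasmacytoid dendritic cells. At an unadjusted p under 0.05 there were 963 genes (6.23%), of which 335 (2.17%) were higher and 628 (4.06%) lower with MTP10-HDL. DESeq2, the tool named in the submitters' processing notes, called 180 genes in the same counts (1.17%), 29 higher (0.188%) and 151 lower (0.977%), and limma voom called 0. All 3 treated libraries lay above both PBS libraries for 1858 genes (12.0%) and below both for 1897 (12.3%). The log2 fold change was above 0 for 8027 genes (52.0%), with a median of 0.02 over all genes tested. Every gene difference below is therefore a value that did not pass the adjusted edgeR test, and the unadjusted p is given to rank it.

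**Figure D1:**
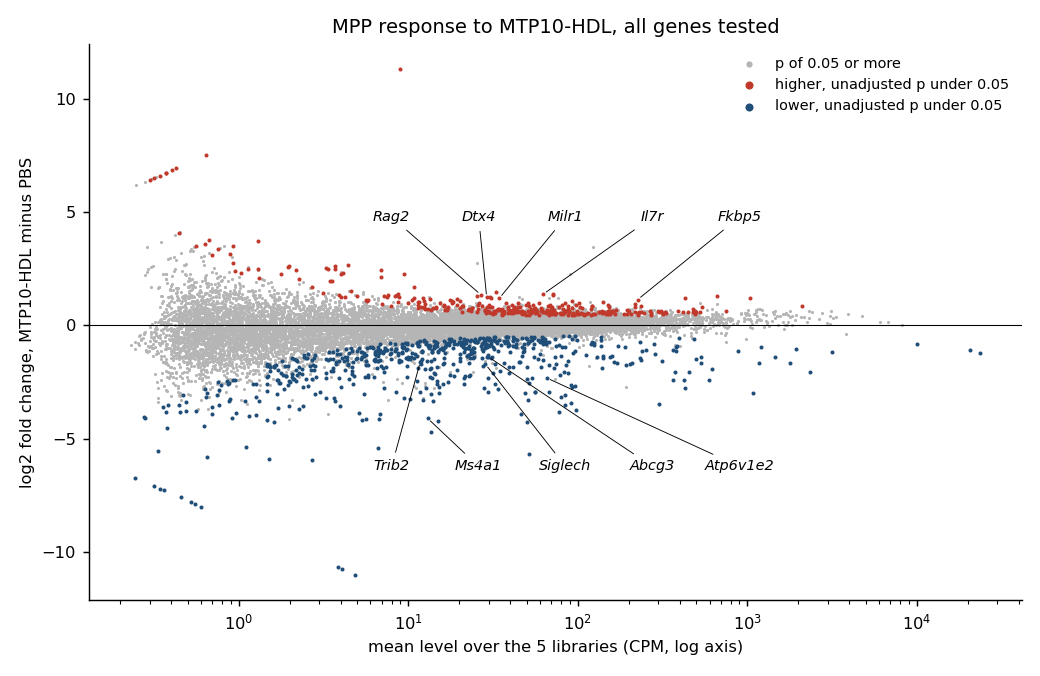
Log2 fold change of each of the 15449 genes tested in MPPs (MTP10-HDL minus PBS) against its mean level over the 5 libraries in CPM on a log axis, with the 5 smallest p of each direction named. Red (335 genes) and blue (628 genes) points have an unadjusted p under 0.05, none passed the adjusted test, and points beyond 5 in either direction are mostly genes at or near 0 in every library of 1 group, whose fitted value is no bound.

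The kind of gene differed by direction. Immunoglobulin genes made up 208 of the genes tested, of which 105 had an unadjusted p under 0.05 on the lower side, and their median log2 fold change was -1.98. Protein-coding genes numbered 12732, of which 299 were higher and 441 lower at that threshold. Over all genes tested 2.17% were higher and 4.06% lower at it. Of the 180 genes that DESeq2 called, 49 were immunoglobulin genes, all lower, and 24 were pseudogenes, all lower. The protein-coding genes among them were 26 higher and 77 lower. The 24 calls do not describe pseudogenes as a class. Of 686 pseudogenes tested, 391 had a value above 0, and their median was 0.14 against 0.02 for all genes. At an unadjusted p under 0.05, 15 pseudogenes were higher and 49 lower. DESeq2 called 0.977% of all genes on the lower side. The direction also went with abundance, as the median log2 fold change was -0.26 for the 1917 genes under 1 CPM and 0.13 for the 2191 genes over 100 CPM.

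The leading higher genes included lymphoid progenitor genes. Il7r, the receptor of interleukin 7 on early lymphoid cells (chr15:9506159-9529941 on GRCm38.p6, the mm10 build), was at 78.8, 73.2 and 97.6 CPM in the treated libraries 1, 2 and 3 and at 31.2 and 32.7 CPM in PBS libraries 2 and 3. Rag2, a subunit of the recombinase that assembles antigen receptor genes (chr2:101624712-101632528), was at 35.2, 32.0 and 39.2 CPM against 12.7 and 15.0 CPM. The groups did not overlap for either gene, with log2 fold changes of 1.38 (SE 0.22, edgeR adjusted p = 0.226) and 1.36 (SE 0.23, edgeR adjusted p = 0.226). Dntt, the terminal transferase that adds bases at antigen receptor joins (chr19:41029275-41059525), was at 1234, 1669 and 1158 CPM against 481.8 and 689.4 CPM (log2 fold change 1.21, SE 0.29, edgeR adjusted p = 0.425). The treated libraries of Dntt also lay above both PBS libraries. All of these genes passed DESeq2, which called 0.188% of all genes on the higher side. The DESeq2 adjusted p was 4.41e-05 for Il7r, 0.000411 for Rag2 and 0.00274 for Dntt. DESeq2 used the same counts, so these calls are no independent support.

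The other genes of smallest p on the higher side had mixed roles. Milr1, an inhibitory receptor of mast cells, was at 43.5, 48.7 and 41.7 CPM against 19.1 and 19.8 CPM (log2 fold change 1.2, SE 0.21). Fkbp5, a cochaperone of steroid receptors and a classical glucocorticoid target, was at 248, 343 and 278 CPM against 124 and 139 CPM (1.14, SE 0.23). Cst7, a cystatin of cytotoxic and myeloid granules, was at 42.3, 59.3 and 32.1 CPM against 16.0 and 16.2 CPM (1.47, SE 0.30). None of these genes overlapped between groups. Dtx4 (1.23), a Deltex-family ubiquitin ligase, Atp8b4 (1.32), a lipid flippase, Tespa1 (0.98), which acts in T cell receptor signalling, and Cd244a (0.92), an immune receptor of the SLAM family, followed among the 9 such genes reported. All 9 passed DESeq2 (0.188% of all genes did so on the higher side), with adjusted p from 4.41e-05 for Il7r to 0.0161 for Cd244a. They were chosen by small edgeR p in the same counts, so passing a 2nd test there adds no independent support.

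**Figure D2:**
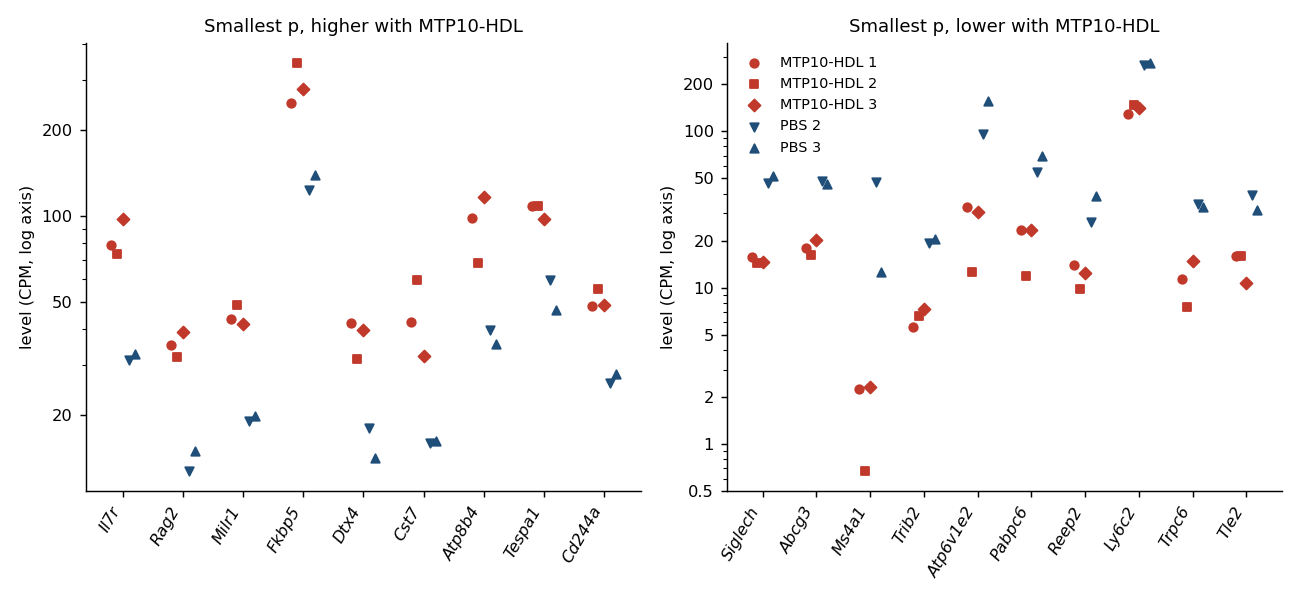
Level in CPM on a log axis of 9 higher (left) and 10 lower (right) genes among those with the smallest edgeR p of genes of at least 10 CPM, leaving out immunoglobulin segments, pseudogenes and predicted genes, each point 1 library (red MTP10-HDL, blue PBS). The 3 treated libraries lie on 1 side of both PBS libraries for all of these genes, for example 73.2 to 97.6 against 31.2 and 32.7 CPM for Il7r, and the genes were chosen by these values.

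On the lower side many of the smallest p belonged to immunoglobulin segments, which the rule for named genes leaves out together with pseudogenes and predicted genes. Igkv4-55, a kappa light chain segment given here after its value was seen, was at 18.5, 19.1 and 11.4 CPM with MTP10-HDL and at 286 and 154 CPM with PBS (log2 fold change -3.75, SE 0.35, edgeR adjusted p = 0.0928). Among the named lower genes were markers of other marrow cells. Siglech (chr7:55768154-55779448) was at 15.8, 14.4 and 14.7 CPM with MTP10-HDL and at 46.6 and 51.5 CPM with PBS, a log2 fold change of -1.71 (SE 0.20, edgeR adjusted p = 0.0928). Ms4a1, the B cell antigen CD20 (chr19:11249679-11266149), was at 2.27, 0.674 and 2.31 CPM against 47.4 and 12.7 CPM (-4.11, SE 0.68). Ly6c2, the monocyte antigen Ly6C (chr15:75108161-75112066), was at 130, 147 and 141 CPM against 264 and 273 CPM (-0.95, SE 0.19), and reads could be split with its near-identical neighbour Ly6c1. The groups did not overlap for these genes. In bulk samples fewer cells of a type and less RNA per cell cannot be told apart.

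The rest of the named lower genes had mixed roles. Abcg3, an ABC transporter (chr5:104935057-104982811), was at 17.9, 16.2 and 20.1 CPM against 48.1 and 45.7 CPM (log2 fold change -1.38, SE 0.21). Trib2, a pseudokinase that acts on C/EBP factors (chr12:15791725-15816962), was at 5.60, 6.6 and 7.26 CPM against 19.2 and 20.4 CPM (-1.61, SE 0.27). Trpc6, a cation channel, was at 11.4, 7.49 and 14.9 CPM against 34.4 and 32.9 CPM (-1.58, SE 0.31). Tle2, a Groucho corepressor (-1.31), and Reep2, a shaper of the endoplasmic reticulum (-1.42), also had all treated libraries below both PBS libraries. Atp6v1e2 (-2.32) and Pabpc6 (-1.67) complete the 10 and are close copies of the widely expressed genes Atp6v1e1 and Pabpc1, so that reads could be split between copies. Atp6v1e1 was at 66.0 to 96.5 CPM with MTP10-HDL and 65.4 and 73.0 CPM with PBS, and thus overlapped, while Atp6v1e2 was at 12.6 to 33.0 against 96.4 and 157 CPM.

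Genes of S phase and mitosis were higher as whole lists. G1 regulators did not share a direction, and the median of replication histones changed sign with single libraries. All 40 S phase genes were higher with MTP10-HDL, also when scaled by DESeq2 size factors or library totals, with a median log2 fold change of 0.47 against 0.02 for all genes. Of them 15 had an unadjusted p under 0.05 (37.5% against 2.17% of all genes on the higher side) and 32 had all treated libraries above both PBS libraries (80.0% against 12.0%). Lig1, the ligase that joins Okazaki fragments, was at 343, 391 and 309 CPM against 223 and 223 CPM (0.64, SE 0.21, edgeR adjusted p = 0.673). The groups stood clear of each other. Mcm6 and Mcm5, subunits of the replicative helicase chosen here after their values were seen because their promoters are printed, were at 804 to 924 against 529 and 605 CPM, and at 325 to 405 against 249 and 266 CPM. With each library left out in turn the median stayed between 0.46 and 0.51 and at least 39 of the 40 genes remained higher. The number with an unadjusted p under 0.05 was 2 without treated library 1, 21 without 2 and 8 without 3. Over all genes 212 of 14920, 452 of 14882 and 377 of 15729 were higher at that threshold in these fits. Leaving out a PBS library leaves a single control, so only the median is given there.

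All 38 mitosis genes were higher as well (37 of 38 with either of these scalings), with a median log2 fold change of 0.35. Of them 7 had an unadjusted p under 0.05 (18.4% against 2.17% of all genes) and 21 had all treated libraries above both PBS libraries (55.3% against 12.0%). Cdk1, the kinase that drives entry into mitosis (chr10:69335146-69352912), was at 146, 166 and 152 CPM with MTP10-HDL against 102 and 103 CPM with PBS (log2 fold change 0.59, SE 0.19, edgeR adjusted p = 0.667). Ndc80, which ties the kinetochore to microtubules, was at 79.5, 73.4 and 76.9 CPM against 45.0 and 54.0 CPM (0.63, SE 0.20). For both genes every treated library was above every PBS library. Mki67, the proliferation antigen Ki-67, overlapped, at 814.9, 489 and 1061 CPM against 707 and 571 CPM (0.30, SE 0.34). The median of the mitosis list was 0.31 to 0.43 with 1 library left out, with 34 to 37 of 38 genes higher. The count at an unadjusted p under 0.05 was 1, 18 and 6 without treated libraries 1, 2 and 3. In these fits 212 of 14920, 452 of 14882 and 377 of 15729 genes were higher at that threshold. Cdk6, the kinase that sets the exit from quiescence in blood progenitors, was at 664, 735 and 567 CPM against 391 and 360.1 CPM (0.80, SE 0.22, edgeR adjusted p = 0.559 and DESeq2 adjusted p = 0.0234). The list of G1 regulators and quiescence genes that includes Cdk6 did not share a direction, with 11 of 24 higher and a median of -0.05. Replication histones, which package new DNA in S phase, had 4 of 13 higher, a median of -0.25 and 1 lower at an unadjusted p under 0.05 (7.69% against 4.06%). Their median was -0.997 without treated library 2 and 0.31 without PBS library 3. Only 13 of the 24 listed histones passed the filter in these libraries of poly-A selected RNA, so this list is no measure of S phase here.

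Promoters of these lists are shown because the members lay on 1 side together. S phase genes are classical targets of E2F factors, and mitosis genes carry CCAAT boxes bound by NF-Y and cell cycle homology regions (CHR). Sequences are those of RefSeq on GRCm38.p6, 250 bases before the listed gene start, written 5′ to 3′ on the gene's strand. Capitals mark matches on either strand, with overlapping matches merged: TTTNNCGC for the E2F-type motif in Mcm6 (chr1:128359706-128359955, minus strand, 3 matches) and Mcm5 (chr8:75109259-75109508, plus strand, 2 matches), and CCAAT and TTTGAA, the CHR core, in Cdk1 (chr10:69352913-69353162, minus strand).
Mcm6: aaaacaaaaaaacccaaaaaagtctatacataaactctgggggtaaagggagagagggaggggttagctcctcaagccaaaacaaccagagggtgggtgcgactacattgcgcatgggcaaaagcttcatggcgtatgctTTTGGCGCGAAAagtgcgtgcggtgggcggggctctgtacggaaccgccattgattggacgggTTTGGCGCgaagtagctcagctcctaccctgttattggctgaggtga
Mcm5: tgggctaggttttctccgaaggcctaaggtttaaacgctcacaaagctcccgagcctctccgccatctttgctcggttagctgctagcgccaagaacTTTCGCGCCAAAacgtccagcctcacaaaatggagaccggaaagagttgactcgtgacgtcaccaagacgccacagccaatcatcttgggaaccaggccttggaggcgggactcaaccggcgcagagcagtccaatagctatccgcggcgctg
Cdk1: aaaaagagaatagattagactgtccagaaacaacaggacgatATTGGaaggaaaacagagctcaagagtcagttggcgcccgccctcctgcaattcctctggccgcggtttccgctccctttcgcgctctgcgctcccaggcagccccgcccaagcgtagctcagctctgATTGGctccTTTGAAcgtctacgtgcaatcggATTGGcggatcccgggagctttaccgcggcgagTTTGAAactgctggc
TTTNNCGC was held by 14 of the 33 S phase members with a RefSeq promoter (42.4%), against 9.58% of the 10825 tested genes with one, over windows of 300 bases that reach 50 bases past the start. Among 32 mitosis members CCAAT was held by 22 (68.8% against 42.8%) and TTTGAA by 22 (68.8% against 14.8%). A match describes the letters and shows no binding.

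Stem cell identity genes lay mostly on the lower side. Of 23 HSC identity genes 5 were higher and 18 lower, and the median was -0.38. The unadjusted p was under 0.05 for 1 higher and 5 lower genes (21.7% against 4.06% of all genes), and 10 (43.5% against 12.3%) had all treated libraries below both PBS libraries. Procr, the endothelial protein C receptor that marks stem cells (chr2:155751125-155755478), was at 27.3, 30.1 and 30.5 CPM against 47.0 and 61.1 CPM (-0.88, SE 0.21, edgeR adjusted p = 0.426, DESeq2 adjusted p = 0.0447). The groups did not overlap. Hlf, Fgd5 and Robo4, named after their values were seen, were among the other members lower at an unadjusted p under 0.05, and Hlf, a transcription factor of stem cells, was at 346, 229 and 282 CPM against 594 and 477 CPM (-0.91, SE 0.24). Kit, the stem cell factor receptor, was at 424, 308 and 386 CPM against 519 and 491 CPM (-0.44, SE 0.22), also without overlap. The median of the list was -0.47 to -0.32 with 1 library left out.

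Surface genes of MPPs pointed both ways. Cd48, the SLAM antigen that separates MPPs from stem cells (chr1:171681245-171705258), was at 109, 131 and 122 CPM against 57.2 and 71.8 CPM (log2 fold change 0.90, SE 0.21, edgeR adjusted p = 0.421). Flt3, the receptor of lymphoid-primed MPPs (chr5:147330741-147400489), was at 879, 842 and 899.5 CPM against 665 and 756 CPM (0.30, SE 0.21). Both were without overlap, whereas Cd34 (0.30, SE 0.25) and Ly6a (-0.05, SE 0.21) overlapped. Slamf1 was at 0.649, 0.887 and 1.54 CPM against 1.97 and 2.04 CPM (-0.97, SE 0.75).

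The lymphoid priming list was split. Of its 24 genes 12 were higher and 12 lower, with a median of -0.01, yet 5 genes were higher at an unadjusted p under 0.05 (20.8% against 2.17%) and 3 lower (12.5% against 4.06%). Among the higher members were Il7r, Rag2 and Dntt, described above, and Satb1, a chromatin organiser of lymphoid cells named after its value was seen, at 251, 309 and 233 CPM against 148 and 148 CPM (0.83, SE 0.21). DESeq2 called 5 of the 24 genes on the higher side and 0 on the lower side, where it called 0.188% and 0.977% of all genes. The summed level of B cell markers was 614.7 to 750.7 CPM with MTP10-HDL and 730.2 and 1049.9 CPM with PBS, with overlap. T and NK cell markers summed to 106 to 126 CPM against 83.7 and 115 CPM, and overlapped. Lck, a kinase of T cells and their precursors, was at 48.6, 60.8 and 50.4 CPM against 34.4 and 35.8 CPM (0.60, SE 0.21). Spib, a B cell and plasmacytoid dendritic cell factor, was at 3.86, 2.91 and 8.03 CPM against 42.4 and 17.1 CPM (-2.60, SE 0.53).

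Early myeloid granule genes leaned higher, while myeloid factors and receptors did not share a direction. Of 19 early myeloid granule genes 14 were higher, with a median of 0.30, and 4 had an unadjusted p under 0.05, all higher (21.1% against 2.17%). Ctsg, the granule protease cathepsin G, was at 61.1, 108 and 74.8 CPM against 43.1 and 45.5 CPM (0.88, SE 0.28, edgeR adjusted p = 0.667). Mpo, myeloperoxidase, overlapped at 331, 388 and 367 CPM against 332 and 272 CPM (0.26, SE 0.21), and so did Elane, neutrophil elastase, at 36.1, 63.2 and 86.3 CPM against 97.8 and 55.5 CPM (-0.31, SE 0.39). The median of these granule genes was 0.18 to 0.43 with 1 library left out. Myeloid factors and growth factor receptors had 9 of 23 higher and a median of -0.11. Spi1, the master factor PU.1 (0.00, SE 0.33), Cebpa (-0.14, SE 0.34), Cebpb (-0.64, SE 0.67), Csf3r, the receptor of G-CSF (-0.01, SE 0.23), and Csf2rb, the common beta receptor (-0.11, SE 0.22), all overlapped between groups. Cebpd, a C/EBP factor of acute inflammation, was at 5.96, 9.44 and 6.22 CPM against 3.33 and 3.19 CPM (1.14, SE 0.42). Mature neutrophil markers summed to 368, 442 and 1947 CPM against 968 and 787 CPM, with treated library 3 the highest of all. Their list median of 0.23 became -1.18 without that library.

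On the megakaryocyte-erythroid branch 4 of 22 priming genes were higher and 18 lower, with a median of -0.36 (-0.51 to -0.19 with 1 library left out). The unadjusted p was under 0.05 for 1 higher and 3 lower genes (13.6% lower against 4.06%), and 10 genes (45.5% against 12.3%) had all treated libraries below both PBS libraries. Gata1, the erythroid-megakaryocytic factor, was at 1.47, 3.27 and 2.48 CPM against 3.74 and 4.34 CPM (-0.75, SE 0.54), and Gata2, its counterpart in stem and progenitor cells, overlapped (-0.38, SE 0.24). Itga2b, the platelet integrin subunit CD41, was on the other side, at 35.1, 32.7 and 36.2 CPM against 20.8 and 24 CPM (0.63, SE 0.21). Platelet and megakaryocyte markers had 5 of 17 higher and 12 lower, with a median of -0.49 that became 0.02 without PBS library 3. At an unadjusted p under 0.05 there were 2 higher (11.8% against 2.17%) and 1 lower (5.88% against 4.06%). Selp, P-selectin, was on the higher side at 15.1, 13.3 and 18.4 CPM against 6.33 and 8.67 CPM (1.06, SE 0.31). Thbs1, the platelet granule protein thrombospondin 1, was on the lower side at 3.92, 0.426 and 4.90 CPM against 35.8 and 25.0 CPM (-3.31, SE 0.77, edgeR adjusted p = 0.413, DESeq2 adjusted p = 0.00179).

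**Figure D3:**
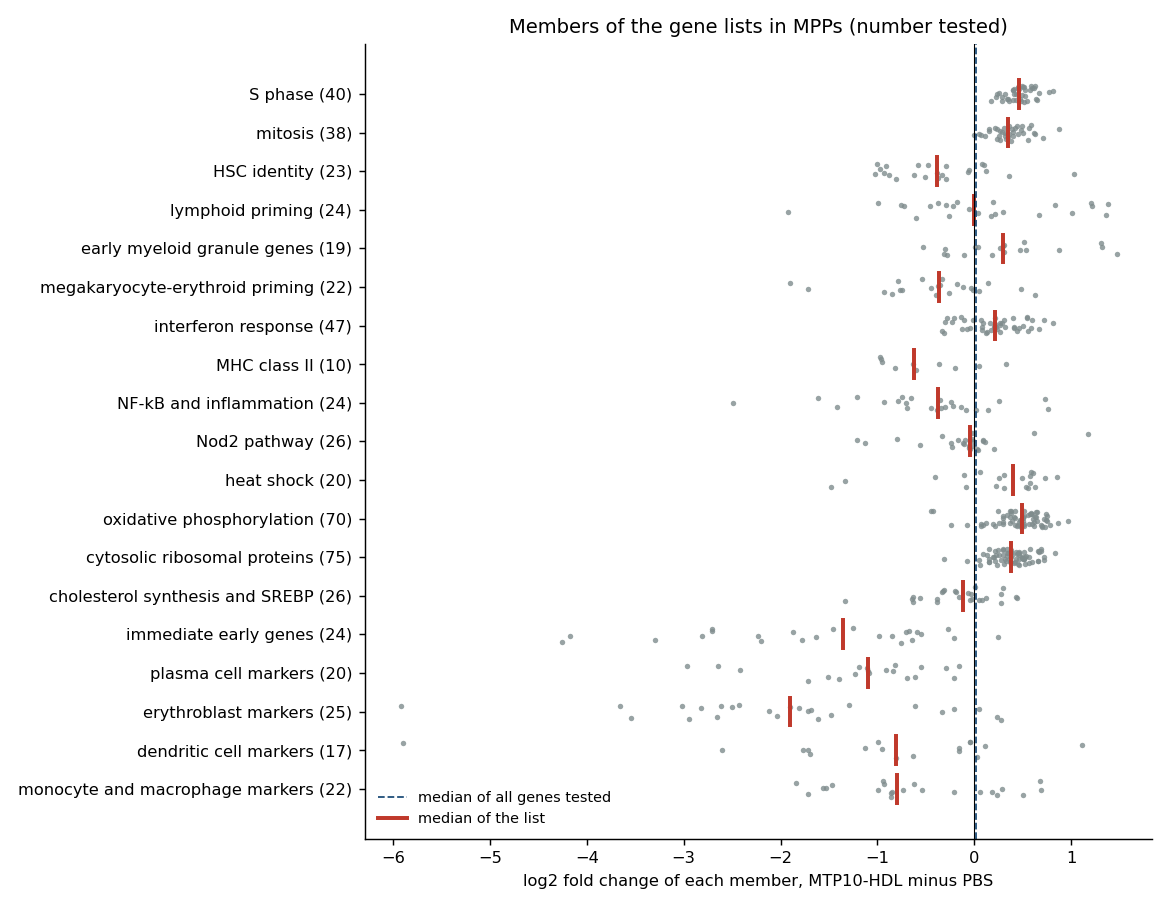
Log2 fold change (MTP10-HDL minus PBS) of every tested member of 19 gene lists in MPPs, 1 grey point per gene, with the list median in red and the median of all genes tested (0.02) as a dashed line. The 40 S phase and 38 mitosis genes lie wholly to the right of 0, while plasma cell (median -1.09) and erythroblast markers (median -1.90) lie mostly to the left.

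Transcripts of the sensor of muramyl peptides and of its pathway were measured, and pathway activity was not. Nod2 itself (chr8:88647315-88688474) was at 3.10, 4.79 and 4.07 CPM with MTP10-HDL and 5.38 and 6.37 CPM with PBS (log2 fold change -0.56, SE 0.41, edgeR adjusted p = 0.882). Ripk2, the kinase it signals through, overlapped at 11.6, 15.7 and 14.4 CPM against 15.4 and 10.7 CPM (0.09, SE 0.30). Card9, an adaptor downstream of Nod2 and C-type lectins, was on the higher side, at 19.9, 29.4 and 25.4 CPM against 12.0 and 10.1 CPM (1.17, SE 0.27, edgeR adjusted p = 0.413, DESeq2 adjusted p = 0.0312). Of 26 Nod2 pathway genes 8 were higher, and the median was -0.05. At an unadjusted p under 0.05 there were 1 higher (3.85% against 2.17% of all genes) and 1 lower (3.85% against 4.06%), close to the shares of all genes. Tnfaip3, the A20 brake on NF-kB, was the lower gene, at 17.5, 11.7 and 16.9 CPM against 25.9 and 45.5 CPM (-1.21, SE 0.31). Pattern recognition genes had a median of -0.06, with 14 of 31 higher. Irak3, an inhibitor of Toll-like receptor signalling, was at 24.7, 13.4 and 28.0 CPM against 41.7 and 36.8 CPM (-0.83, SE 0.32).

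NF-kB and inflammation genes were mostly lower (5 of 24 higher, median -0.37), with 0 higher and 4 lower at an unadjusted p under 0.05 (16.7% against 4.06%). Nfkbiz, an atypical inhibitor of the pathway, was at 20.4, 17.3 and 11.2 CPM against 23.7 and 63.6 CPM (-1.42, SE 0.43), with PBS library 3 far above the rest. The list median ran from -0.69 to -0.07, the latter without PBS library 3. Il1r1, the interleukin 1 receptor (chr1:40222480-40316201), was at 124, 92.3 and 131 CPM against 82.3 and 68.8 CPM (0.61, SE 0.23, edgeR adjusted p = 0.750), with no overlap.

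Interferon response genes had 35 of 47 members higher, a median of 0.22, 4 at an unadjusted p under 0.05 on the higher side (8.51% against 2.17%) and 11 (23.4% against 12.0%) with all treated libraries above. Ifi44 was at 70.3, 66.1 and 81.1 CPM against 42.4 and 53.4 CPM (0.60, SE 0.22), and Dhx58, the RNA sensor LGP2, at 47.8, 50.1 and 45.6 CPM against 30.8 and 34.9 CPM (0.54, SE 0.20). Irf7, the factor that amplifies interferon output, overlapped at 64.0, 64.0 and 66.7 CPM against 43.8 and 67.6 CPM (0.22, SE 0.24). The list median was 0.05 without PBS library 2 and 0.39 without PBS library 3, so the choice of control library decided its size. Interferon-gamma GTPases and regulators had 16 of 24 higher and a median of 0.11, which was -0.06 without treated library 3 and -0.06 without PBS library 2. At an unadjusted p under 0.05 there were 1 higher (4.17% against 2.17%) and 4 lower (16.7% against 4.06%), the latter including Gbp4 (-1.17, SE 0.35) and Gbp8 (-0.94, SE 0.32). Genes of major histocompatibility complex (MHC) class I had 18 of 21 members higher with a median of 0.14, and none had an unadjusted p under 0.05. MHC class II genes had 2 of 10 higher, a median of -0.62 and 4 lower at an unadjusted p under 0.05 (40% against 4.06%). Without PBS library 3 the median was -0.42. Among the 4 lower genes Cd74, the invariant chain, was at 232, 364 and 234 CPM against 578 and 489 CPM (-0.95, SE 0.26), and H2-Eb1 was at 46.5, 73.4 and 56.0 CPM against 91.3 and 138 CPM (-0.97, SE 0.27). Antigen-presenting cells carry class II genes. The dendritic cell markers, of which Tcf4 was the most abundant, summed to 640.2 to 800.8 CPM with MTP10-HDL and 803.8 and 839.9 CPM with PBS. These sums were only narrowly apart, and the part of such cells in the class II values was not tested.

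An interferon promoter is shown because the list has a known response element (ISRE), searched here as GAAANNGAA. Oas1a, an oligoadenylate synthetase named after its value was seen and whose reads could be split with near-identical Oas1 copies, was at 32.1, 45.3 and 35.4 CPM against 15.2 and 27.6 CPM (0.81, SE 0.31). The 250 bases before its start (chr5:120907526-120907775, minus strand, RefSeq GRCm38.p6) hold 2 overlapping matches, in capitals.
Oas1a: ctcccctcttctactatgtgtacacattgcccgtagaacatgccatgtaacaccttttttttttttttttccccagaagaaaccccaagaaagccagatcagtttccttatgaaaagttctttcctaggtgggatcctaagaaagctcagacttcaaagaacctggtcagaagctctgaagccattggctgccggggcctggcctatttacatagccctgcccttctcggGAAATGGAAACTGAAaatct
The motif was held by 17 of 34 interferon response members with a promoter (50.0%) and by 9.01% of all tested genes with one.

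Immediate early genes, which are induced within minutes by handling as well as by signals, depended on 1 control library. Of 24 genes 1 was higher, the median was -1.36 and 9 were lower at an unadjusted p under 0.05 (37.5% against 4.06%), but 3 had all treated libraries below both PBS libraries (12.5% against 12.3%). Egr1, a zinc finger factor, was at 12.1, 53.7 and 20.4 CPM with MTP10-HDL and at 24.1 and 351 CPM with PBS (-2.71, SE 0.98), and Klf6 was at 60.9, 84.7 and 55.8 CPM against 62.3 and 431 CPM (-1.88, SE 0.65). PBS library 3 was the high one in both. Without it the median became 0.29 with 18 of 24 genes higher, and without PBS library 2 it was -2.03. Btg2, an antiproliferative cofactor, was lower in every treated library, at 42.2, 44.3 and 39.3 CPM against 54.9 and 81.8 CPM (-0.70, SE 0.23). Its promoter (chr1:134079156-134079405, minus strand, RefSeq GRCm38.p6) is shown with TGACG, the core of the cAMP response element, in capitals for 2 merged matches.
Btg2: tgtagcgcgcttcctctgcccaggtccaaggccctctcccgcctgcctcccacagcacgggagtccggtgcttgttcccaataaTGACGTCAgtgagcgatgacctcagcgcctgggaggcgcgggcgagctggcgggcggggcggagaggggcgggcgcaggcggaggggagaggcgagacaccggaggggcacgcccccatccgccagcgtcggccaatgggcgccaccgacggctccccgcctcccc
TGACG was held by 11 of 20 immediate early genes with a promoter (55.0%) and by 34.3% of tested genes.

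Heat shock genes leaned higher, with 15 of 20 above 0, a median of 0.40 (0.31 to 0.43 with 1 library left out), 6 higher (30.0% against 2.17%) and 1 lower at an unadjusted p under 0.05, and 12 without overlap on the higher side (60% against 12.0%). Hspe1, the mitochondrial cochaperonin, was at 84.8, 139 and 97.0 CPM against 51.8 and 67.2 CPM (0.85, SE 0.28). Hspa1b, an inducible Hsp70 whose reads could be split with its copy Hspa1a, was at 10.9, 9.62 and 21.2 CPM against 29.5 and 40.3 CPM (-1.33, SE 0.37). Of the unfolded protein response 9 of 24 genes were higher, with a median of -0.11, and Xbp1, its transcription factor and also a plasma cell gene, was at 216, 259 and 166 CPM against 483.5 and 281 CPM (-0.84, SE 0.30). The 12 glucocorticoid genes had 9 higher and a median of 0.20, which ran from -0.03 to 0.71 with 1 library left out.

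Genes of oxidative phosphorylation, the tricarboxylic acid cycle, ribosomal proteins and the proteasome were nearly all higher by a small amount, and the size of most of these medians moved with single libraries of both groups. Of 70 oxidative phosphorylation genes 66 were higher with a median of 0.49, yet 3 had an unadjusted p under 0.05 (4.29% against 2.17%). Cytosolic ribosomal protein genes had 73 of 75 higher, a median of 0.38 and none at an unadjusted p under 0.05. Proteasome subunits had 31 of 31 higher (median 0.43), mitochondrial ribosomal proteins 42 of 43 (0.43) and the tricarboxylic acid cycle 23 of 24 (0.35). All treated libraries lay above both PBS libraries for 54.8% of proteasome, 44.2% of mitochondrial ribosomal, 37.5% of tricarboxylic acid cycle and 34.3% of oxidative phosphorylation genes. That share was 4.0% for cytosolic ribosomal proteins and 12.0% for all genes. Without treated library 2 the medians were 0.17 for oxidative phosphorylation, 0.02 for cytosolic ribosomal proteins (41 of 75 higher), 0.22 for the proteasome, 0.18 for mitochondrial ribosomal proteins and 0.27 for the tricarboxylic acid cycle. Without PBS library 2 they were 0.27 for oxidative phosphorylation and 0.09 for cytosolic ribosomal proteins (53 of 75 higher), and without PBS library 3 they were 0.72 and 0.77. Cox6a1, a subunit of cytochrome oxidase, shows this library, at 109, 216 and 121 CPM against 71.1 and 92.2 CPM (0.86, SE 0.34), and Pgls of the pentose phosphate pathway at 120.1, 286 and 127 CPM against 75.0 and 99.1 CPM (1.03, SE 0.41). Npm1, a nucleolar chaperone of ribosome assembly, was at 2148, 3179 and 2398 CPM against 1234 and 1638 CPM (0.84, SE 0.29). Other energy metabolism was less one-sided, with 16 of 25 genes of fatty acid metabolism higher (median 0.05). Glycolysis genes had 18 of 32 higher and a median of 0.04, with Gapdh at 297, 283 and 333 CPM against 215.5 and 223 CPM (0.47, SE 0.20) and Hk2, the inducible hexokinase, overlapping (-0.16, SE 0.20).

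**Figure D4:**
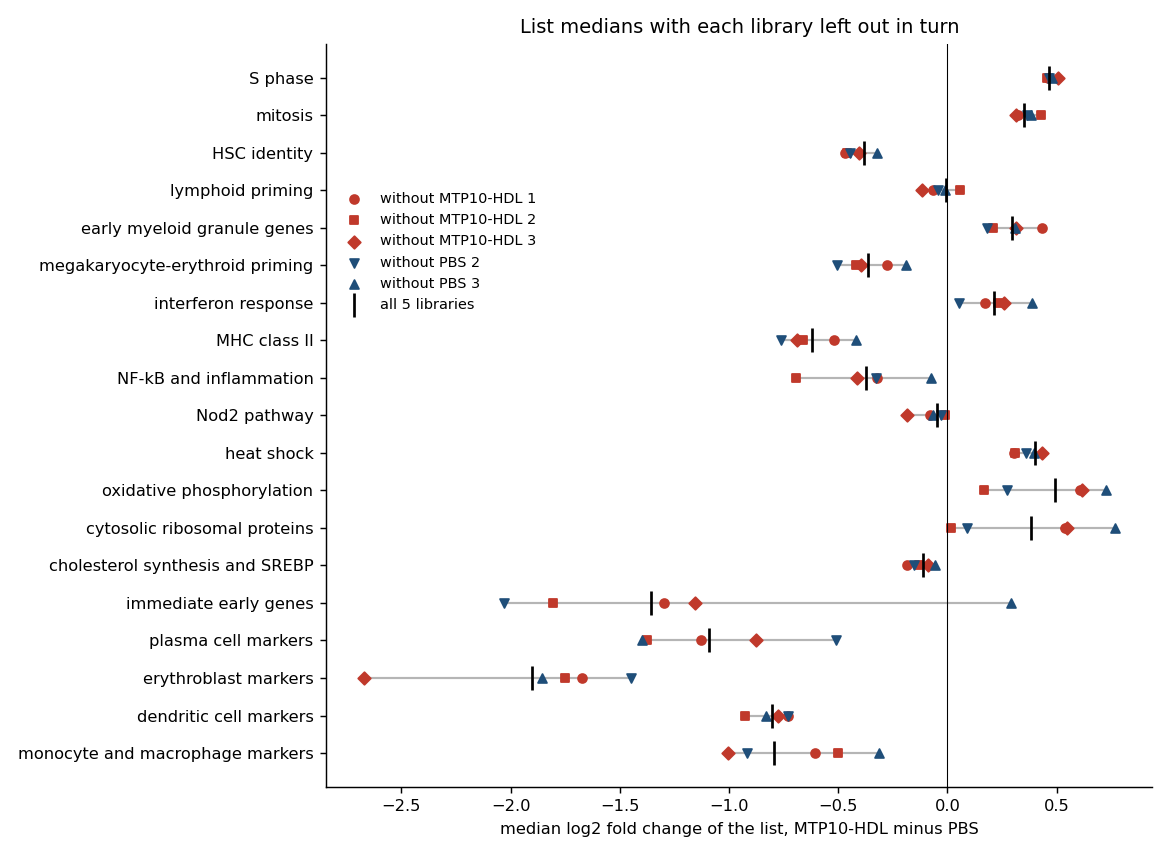
Median log2 fold change of 19 gene lists in MPPs (MTP10-HDL minus PBS) with all 5 libraries (black tick) and with each library left out in turn (symbols), where leaving out 1 of the PBS libraries leaves a single control. S phase stays between 0.46 and 0.51, cytosolic ribosomal proteins range from 0.02 to 0.77, and immediate early genes range from -2.03 to 0.29.

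The lipid side of the particle was examined through cholesterol genes. Insig1, the sterol-responsive anchor of the SREBP pathway, was at 27.8, 23.3 and 22.8 CPM with MTP10-HDL and 39.5 and 37.4 CPM with PBS (log2 fold change -0.64, SE 0.21). The groups did not overlap. Of 26 cholesterol synthesis and SREBP genes, Insig1 included, 9 were higher and 17 lower with a median of -0.11, 3 lower at an unadjusted p under 0.05 (11.5% against 4.06%) and 9 below without overlap (34.6% against 12.3%). Among 17 genes of HDL uptake, cholesterol efflux and LXR the median was -0.05. Abca1, the transporter that loads HDL, was at 32.5, 28.9 and 33.8 CPM against 44.2 and 38.2 CPM (-0.38, SE 0.20), Scarb1, the HDL receptor, overlapped (0.19, SE 0.20), and Apoe was at 35.5, 58.0 and 52.4 CPM against 68.2 and 99.5 CPM (-0.79, SE 0.28). Apoe is also a macrophage gene, and the summed monocyte and macrophage markers were 313 to 429 CPM against 520.3 and 559 CPM. Ly6c2, the most abundant of these markers, was itself at 130 to 147 CPM against 264 and 273 CPM and made up much of that sum.

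Adhesion and homing genes had 14 of 26 higher and a median of 0.05. Cxcr4, the receptor that retains progenitors in marrow (chr1:128588199-128592299), was at 251, 271 and 280.2 CPM against 124 and 157 CPM (0.93, SE 0.21, edgeR adjusted p = 0.395, DESeq2 adjusted p = 0.00666), without overlap. Histone methylation enzymes, of interest in trained immunity, had 13 of 36 higher and a median of -0.05. Kdm7a, a demethylase of repressive marks, was at 30.9, 38.4 and 33.6 CPM against 71.9 and 65.3 CPM (-1.0, SE 0.20), and Kdm6b at 21.3, 25.5 and 31.9 CPM against 39.1 and 44.3 CPM (-0.67, SE 0.24).

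Markers of mature marrow cells were measured across all libraries because a sort can hold such cells or their RNA. Plasma cell markers, of which Ighm was the most abundant, summed to 22444 to 43609 CPM with MTP10-HDL and 51986 and 103701 CPM with PBS, and 14 of 20 were lower at an unadjusted p under 0.05 (70.0% against 4.06%) with a median of -1.09. Without PBS library 2 their median was -0.51. Erythroblast markers, of which Car2 was the most abundant, summed to 620.0 to 713 CPM against 804 and 1078 CPM. At that threshold 12 of 25 were lower (48.0% against 4.06%), with a median of -1.90. This median rested on genes of low level, as it was -0.26 over the 7 genes with a mean of at least 10 CPM, of which 2 were lower at that threshold. Slc4a1 was at 0.0885, 0.0710 and 0.165 CPM against 8.17 and 5.04 CPM, so this defining red cell marker was near 0 in every treated library. Dendritic cell markers had 7 of 17 lower at that threshold (41.2% against 4.06%) and a median of -0.80, which was -0.21 over the 9 genes of at least 10 CPM. Monocyte and macrophage markers had 6 of 22 lower (27.3% against 4.06%) and a median of -0.80, which was -0.31 without PBS library 3. Eosinophil markers summed to 27.6 to 57.5 CPM against 61.7 and 107 CPM. The sums of B cell, neutrophil, platelet and megakaryocyte, basophil and mast cell, T and NK cell, and stroma and endothelium markers overlapped between groups. Gp1bb and Gp6 of platelets, Tph1 of mast cells, Ear1 of eosinophils and Bglap of bone were at 0 in all 5 libraries. The part of these cells in the lower values of other lists was not tested.

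**Figure D5:**
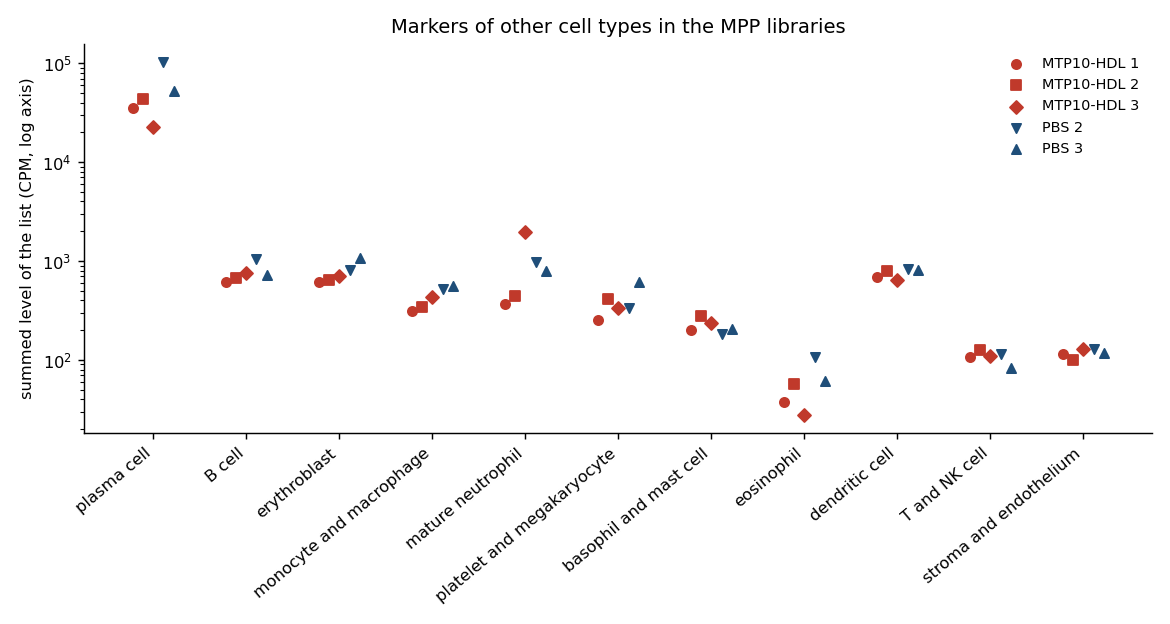
Summed level in CPM (log axis) of 11 lists of markers of other cell types in each MPP library, red MTP10-HDL and blue PBS. All 3 treated libraries lie below both PBS libraries for plasma cell, erythroblast, monocyte and macrophage, eosinophil and dendritic cell markers (for example 313 to 429 against 520.3 and 559 CPM for monocytes and macrophages) and overlap with them for the other 6 lists.

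The response of MPPs was set against that of HSCs of the same study (6 MTP10-HDL and 7 PBS libraries, made with another kit) in 1 fit of 24470 genes that tests the difference of the 2 responses. No injection schedule was recorded here for the HSC samples, so the treatments may not match. The HSC libraries were also shallower, at 4064155 to 7879858 counts. The fit called 1 gene (0.00409%, edgeR, adjusted p under 0.05) and gave 945 genes at an unadjusted p under 0.05 (3.86%). The called gene was Gm43360, a predicted transcript of unknown role at 0 CPM in all treated MPP libraries and 0.680 and 1.59 CPM in PBS, against HSC means of 9.64 CPM with MTP10-HDL and 14 CPM with PBS. No fold is given for MPPs because every treated library was at 0. The fitted values of Il7r, Rag2 and Dntt had opposite signs in the 2 cell types. In HSCs alone their SE was 0.42, 0.56 and 0.34, with unadjusted edgeR p of 0.0407, 0.346 and 0.443. The log2 fold change of Il7r was 1.38 in MPPs and -0.94 in HSCs, a difference of 2.32 (SE 0.71, edgeR adjusted p = 0.913). For Rag2 it was 1.36 and -0.54 (difference 1.90, SE 0.88), and for Dntt 1.21 and -0.27 (difference 1.49, SE 0.59). Procr was at -0.88 in MPPs and near 0 in HSCs (difference -0.86, SE 0.31). Each of these differences had an unadjusted p under 0.05, as 3.86% of genes did, and none passed the adjustment over all genes. These 4 genes are shown for their MPP values, which also enter the difference. That share of all genes is therefore no fair baseline for them.

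List medians in MPPs and HSCs stood as follows, without a test of the difference of medians. S phase genes had 0.47 in MPPs and 0.22 in HSCs, mitosis genes 0.35 and 0.04, HSC identity genes -0.38 and 0.00, and lymphoid priming genes -0.01 and -0.38. Interferon response genes had 0.22 in MPPs and 0.63 in HSCs, where 45 of 47 were higher, and early myeloid granule genes had 0.30 and 0.52. The MHC class II medians had opposite signs, at -0.62 and 0.79. Erythroblast markers were on the lower side in both, at -1.90 and -1.20. In the edgeR fit of the difference 3.86% of all genes had an unadjusted p under 0.05. Members at that threshold were 0 of 10 for MHC class II, 0 of 40 for S phase, 3 of 38 for mitosis and 3 of 23 for HSC identity. They were 6 of 24 for lymphoid priming, 1 of 47 for interferon response, 0 of 19 for early myeloid granule genes and 2 of 25 for erythroblast markers. None of them passed the adjustment.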

How the data were processed

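RNA of sorted mouse MPPs was sequenced in 3 MTP10-HDL and 2 PBS samples. The authors deposited raw read counts per Ensembl gene as whole numbers, in 1 table for MPPs and 1 for HSCs. Per the labels' protocols, RNA with an integrity number above the stated minimum was poly-A selected, insect RNA was added as carrier and libraries were directional. Per the submitters' processing notes, MPP reads were processed with STAR 2.7.2a, DESeq2 1.24 and R 3.6.1 on mm10. The counting tool, annotation release, strand setting and treatment of reads with several matches were not given in the sources used here, so genes with near-identical copies are uncertain.

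Counts were scaled by edgeR's TMM method, filtered by filterByExpr and tested in edgeR 4.0.16 (quasi-likelihood F test, R 4.3.3) on the 5 MPP libraries, with Benjamini-Hochberg adjustment over 15449 genes and a threshold of 0.05. Log2 fold changes are MTP10-HDL minus PBS. Totals were 11252479 to 32769369 counts per library. The response was compared with that of HSCs in 1 edgeR fit with 4 group means. The analysis was tested on simulated counts. Gene lists (56) are described by counts and medians, with no set test. Promoters and positions are RefSeq entries of GRCm38.p6 matched by symbol.

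Named genes are, in each direction, the 10 of smallest p with a mean of 10 CPM or more, leaving out immunoglobulin and T cell receptor segments, pseudogenes and predicted or clone-named genes, since fewer than 5 genes passed the test, the 2 members of smallest p of each list, and genes of the pathway and surface phenotype. Some genes that this rule takes are not reported here. The lists and named genes were chosen with earlier results of these data known. Alternatives were DESeq2 1.42.0, limma voom (limma 3.58.1), other scaling, other filters, thinned counts, a replicate block and leaving out each library. The ATAC-seq samples were not used here.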

Additional observations from a re-analysis of the deposited data

Results flagged for a closer look

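The response of Gm43360 (Ensembl ENSMUSG00000105970, a predicted transcript with no established role) differed between MPPs and HSCs in the edgeR test of the difference itself. The fitted MPP response minus the HSC response was -6.00 on the log2 scale (SE 0.91, adjusted p = 0.0368 over 24470 genes). Levels in MPPs were 0 CPM in the 3 MTP10-HDL libraries and 0.680 and 1.59 CPM in the PBS libraries, and HSC means were 9.64 CPM with MTP10-HDL and 14 CPM with PBS. With a whole group at 0 the fitted value depends on the prior count and is no bound. Leaving out any 1 treated MPP library gave no call.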

How the results depend on the processing

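The number of genes called in MPPs (0) became 180 with DESeq2, 345 with no filter on low counts, 59 with the replicate block, 2 with library totals only and 1 with counts thinned to the shallowest library. It was 0 to 17 with 1 library left out, where the 17 came without PBS library 3 and all were lower, and 0 with the other alternatives. At an unadjusted p under 0.05 the count of 963 became 597 at a mean of at least 10 CPM, 1759 with no filter and 524 with the replicate block, and it was 635 to 1216 with 1 library left out. The difference between the MPP and HSC responses (1 gene) gave 2 genes with scaling within each table and 0 at a mean of at least 10 CPM in both, and 0 to 1 with 1 library left out. Its 945 genes at an unadjusted p under 0.05 became 193 at that mean, and 818 to 1128 with 1 library left out. Where 1 PBS library was left out, the lone control was assumed to vary like the treated group.

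Of 1954 values of the named genes under the alternatives 1825 kept direction and side of the threshold, 90 passed it and 39 changed sign, all from log2 fold changes that had not passed. With 1 library left out the values of these genes ranged from -2.70 to 0.11 for Klf6, -3.63 to 0.25 for Egr1, -2.01 to 0.0537 for Sgk1, -2.34 to 0.80 for H1f2, -1.38 to 0.58 for Cebpb, -0.0688 to 0.57 for Irf7, -0.66 to 0.14 for Elane, -0.14 to 0.46 for Irf1 and -0.34 to 0.16 for Csf2rb. They ranged from -0.11 to 0.36 for Irf8, -0.58 to 0.40 for Xist, -0.54 to 0.0426 for Cebpa, -0.15 to 0.37 for Ripk2, -0.20 to 0.0358 for Ly6a, -0.15 to 0.25 for Gfi1, -0.25 to 0.26 for Csf3r and -0.39 to 0.52 for Spi1. The replicate block gave 0.00183 for Elane and -0.0185 for Gfi1, a mean of at least 10 CPM gave -0.0103 for Gfi1 and -0.0595 for Spi1, and no filter gave 0.00836 for Csf3r. Spi1 was -0.0182 with DESeq2, -0.0180 with its size factors, -0.0224 with library totals, -0.0222 without immunoglobulin, ribosomal RNA and mitochondrial genes, and -0.00518 with thinned counts. The cause was not tested.

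Of 783 list medians under the alternatives 708 moved by less than the spread and 75 by more, and 44 changed sign. The numbers 2 and 3 are shared by both groups. The difference of library 2 minus library 3 did not go together in both groups (r = -0.109 across 15449 genes, which are not independent). That check rests on a single difference per group, and treated library 2 was set apart on the first principal component, so it cannot exclude pairing. No pairing was assumed, and the block is given only here. With the replicate block all 40 S phase genes and 36 of 38 mitosis genes were higher and 0 of either list had an unadjusted p under 0.05. Over all 15449 genes 89 were higher at that threshold with the block and 335 without it. A count of 0 in lists of this size is thus near the share of all genes. Depth limits genes under 1 CPM, and 2 control pools limit every result.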

Other observations

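Several lists not described above lay close to the median of all genes (0.02). Their medians were 0.07 for cytokine receptors and JAK-STAT genes (21 of 34 higher), 0.06 for p53 and apoptosis (11 of 21), 0.05 for fatty acid metabolism (16 of 25), 0.07 for antioxidant defence (15 of 22), -0.01 for ATF4 targets and serine synthesis (12 of 24), -0.02 for the HIF and mTOR axis (12 of 24) and 0.01 for DNA methylation enzymes (5 of 10). HOX, MEIS and PBX genes (7 of 18 higher) had a median of -0.20 and imprinted genes (4 of 14 higher) a median of -0.43. Vegfa, an angiogenic growth factor, was at 15.7, 15.5 and 15.7 CPM with MTP10-HDL and 36.9 and 25.1 CPM with PBS (log2 fold change -0.99, SE 0.24).

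Among the genes lower by DESeq2 were tissue-restricted copies of conserved genes, singled out here after their values were seen. Acta1, skeletal muscle actin, was at 909, 699 and 1288 CPM with MTP10-HDL and 2189 and 3878 CPM with PBS (log2 fold change -1.65, SE 0.35, DESeq2 adjusted p = 0.000821). Hspa2, a testis Hsp70, was at 285, 160.3 and 432 CPM against 627 and 1001 CPM (-1.48, SE 0.41). The neuronal tubulin Tubb3 was at 298, 196 and 484 CPM against 645 and 1061 CPM (-1.39, SE 0.39), and Rpl3l, the muscle copy of a ribosomal protein, was at 37.4, 38.8 and 58.5 CPM against 73.7 and 162 CPM (-1.39, SE 0.36). In all of them PBS library 3 was the highest, PBS library 2 next and treated library 3 after that, which is the order from the shallowest library to deeper ones (11252479, 14691375 and 17555267 counts, then 30506148 and 32769369). The order did not hold between the deepest libraries for Acta1, Hspa2 and Tubb3, where treated library 1, the deepest, lay above treated library 2. The widely expressed relatives differed less, with log2 fold changes of -0.39 (SE 0.26) for Actb, 0.54 (SE 0.24) for Hspa8, 0.41 (SE 0.24) for Tubb5 and 0.43 (SE 0.34) for Rpl3. Atp6v1e2 and Pabpc6, among the named lower genes, are copies of the same sort. In these, treated library 1 lay slightly above treated library 3 (33.0 against 30.4 CPM and 23.5 against 23.3 CPM). The libraries held insect RNA as carrier, per the labels, and its reads were not measured here.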
